A study of Mus musculus with 24 samples.

Results

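The keratin genes were followed over the whole experiment, as every gene whose mouse symbol is Krt directly followed by a digit. Probes were matched to symbols through their RefSeq accession, which gave 53 keratin genes with 64 probes among the 20145 genes that had a symbol on the array. The cells were HC11, a mouse mammary epithelial line that goes back to the Comma-D line of a mid-pregnant Balb/c mouse, and all 9 groups were derived from this 1 line. In the siRNA experiment, cells received 10 nM of siRNA, either a negative control (siNEG), siRNAs against the major splice forms *mPINC1.0* and *mPINC1.6* of the long noncoding RNA *PINC* (siPINC1.0/1.6), or siRNAs against all *mPINC* splice forms (siPINC). Each set was a pair of siRNAs, and 1 siRNA was in both sets. They were studied without lactogenic hormones (-LH, n = 2 biological replicates in each group) or with hydrocortisone, insulin and prolactin (+LH, n = 3 in each group). The methods list insulin in the growth medium and the priming medium as well, and EGF in the growth medium only. The medium of the -LH cells on the arrays is not stated, so a difference in medium cannot be told apart from the hormones. In the overexpression experiment, cells carried a LeGO lentivirus for GFP (LeGO-GFP), for the pair of major splice forms (LeGO-1.0/1.6) or for a *PINC* form from which the most conserved regions are missing (LeGO-DCR), and all 3 groups received the hormones (n = 3 in each group). The time in hormones before the arrays is not given in the sources used here. RNA of each culture was hybridised to a 1-colour Agilent array, and signals are log2 values after quantile normalization across the 24 arrays, so that a difference of 1 is a doubling.

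Keratins are the intermediate filament proteins of epithelial cells. A filament forms from pairs of an acidic type I and a basic type II keratin, for example *Krt14* with *Krt5* in basal cells, *Krt18* with *Krt8* in simple epithelium, and *Krt16* or *Krt17* with *Krt6a* or *Krt6b* in activated, wounded or fast-growing epithelium. In the mammary gland *Krt5* and *Krt14* are used as marks of the basal, myoepithelial layer and *Krt8*, *Krt18* and *Krt19* as marks of the luminal layer, from which the milk-secreting alveolar cells arise. Other members build the suprabasal layers of skin and mucosa, the inner root sheath of the hair follicle, or the hair shaft.

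Between 24033 and 35842 probes per array were well above background, a mark that the scanner software gives to a spot that clearly exceeds its surroundings. The highest value belonged to LeGO-1.0/1.6 replicate 1, and the other 23 arrays lay between 24033 and 30770. Precision is set by how few arrays a group has, and no spot was saturated. The 24 arrays came from 3 slides, with all -LH arrays, siNEG +LH replicate 1 and LeGO-GFP replicate 1 on 1 slide. The other +LH siRNA arrays shared the next slide, and the other lentivirus arrays the last one. The *mPINC* probe lay at 7.41 and 7.48 in siNEG -LH cells and between 6.16 and 6.39 in both -LH knockdown groups. In +LH cells it was close to background, at 4.72 to 4.96 in siNEG and 4.83 to 5.25 on the arrays labelled siPINC1.0/1.6, so that it did not show a knockdown there. On the +LH arrays labelled siPINC it was 4.15 to 4.76, with 1 of 3 well above background. It lay between 13.34 and 13.50 in LeGO-1.0/1.6 cells, between 5.92 and 6.38 in LeGO-GFP cells and between 5.93 and 6.17 in LeGO-DCR cells, so that this probe does not show the LeGO-DCR construct. Because the arrays measured the RNA of whole cultures, fewer cells of a type and less RNA per cell cannot be told apart.

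Of the 53 keratin genes, 30 exceeded background in this way on all arrays of 1 group or more, and 20 of them on all 24 arrays. A further 10 were well above background on some arrays only, and 13 on none. The basal layer keratins (3 of 3), the wound and stress keratins (4 of 4) and the simple epithelial keratins (4 of 5) were nearly all measured. The exception was *Krt19*, the luminal keratin, which was well above background on 1 array alone, of LeGO-1.0/1.6 cells. Of the suprabasal and mucosal keratins 7 of 12 were measured in this way, of the root sheath keratins 3 of 9 and of the hair shaft keratins 4 of 14. All 6 epithelial markers (*Cdh1*, *Epcam*, *Cldn7*, *Esrp1*, *Krt8* and *Krt18*) were well above background on every array of every group. *Krt1*, *Krt25*, *Krt32*, *Krt33a*, *Krt33b*, *Krt34*, *Krt35*, *Krt39*, *Krt40*, *Krt72*, *Krt76*, *Krt77* and *Krt87* were not well above background anywhere.

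Promoters of 36 of the 53 keratin genes were in the RefSeq table (GRCm38.p6). *Krt15*, *Krt6a*, *Krt6b*, *Krt16* and *Krt17* had no entry there and could not be shown. Shown are the promoters of the partners *Krt5* and *Krt14*, of the partners *Krt8* and *Krt18*, and of *Krt23*. Each is the 250 bases before the annotated start, read 5′ to 3′ on the gene's strand, with capitals on any match to the motifs searched. They lie at chr15:101712906-101713155 (minus strand), chr11:100206031-100206280 (minus), chr15:102004343-102004592 (minus), chr15:102027966-102028215 (plus) and chr11:99493121-99493370 (minus), in this order.
Krt5: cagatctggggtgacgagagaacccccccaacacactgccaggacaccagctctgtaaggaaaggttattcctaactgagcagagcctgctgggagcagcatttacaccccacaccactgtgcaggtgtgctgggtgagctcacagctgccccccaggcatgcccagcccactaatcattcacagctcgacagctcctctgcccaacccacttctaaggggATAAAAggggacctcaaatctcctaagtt
Krt14: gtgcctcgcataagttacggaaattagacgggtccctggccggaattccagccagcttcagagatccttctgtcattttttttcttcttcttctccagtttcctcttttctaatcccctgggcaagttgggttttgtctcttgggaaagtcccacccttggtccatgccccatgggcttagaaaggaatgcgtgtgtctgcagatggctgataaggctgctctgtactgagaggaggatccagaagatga
Krt8: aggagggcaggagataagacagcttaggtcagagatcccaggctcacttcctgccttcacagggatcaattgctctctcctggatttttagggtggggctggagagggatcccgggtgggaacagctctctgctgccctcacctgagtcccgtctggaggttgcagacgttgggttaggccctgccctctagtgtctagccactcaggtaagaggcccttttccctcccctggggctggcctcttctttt
Krt18: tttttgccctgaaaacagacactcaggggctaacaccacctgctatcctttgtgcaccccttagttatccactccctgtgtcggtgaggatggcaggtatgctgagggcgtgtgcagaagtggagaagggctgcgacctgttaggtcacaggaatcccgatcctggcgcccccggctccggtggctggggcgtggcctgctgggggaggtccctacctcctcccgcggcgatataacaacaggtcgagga
Krt23: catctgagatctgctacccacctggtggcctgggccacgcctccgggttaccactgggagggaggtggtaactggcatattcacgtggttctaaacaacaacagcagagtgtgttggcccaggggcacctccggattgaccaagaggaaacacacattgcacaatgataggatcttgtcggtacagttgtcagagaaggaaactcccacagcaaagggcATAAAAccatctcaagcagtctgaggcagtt
Both strands were read for 6 motifs. The TATA box was searched as TATAAA. A related run that can overlap it on the same strand was searched as ATAAAA. For the prolactin-activated factor STAT5 the letters were TTCNNNGAA. For the glucocorticoid receptor a single element of its site was used, written AGAACA. The AP-1 factors, made of Fos and Jun proteins, were given by TGANTCA. The common promoter factor SP1 was given by GGGCGG. Only ATAAAA was found in these 5 windows, 29 bases before the start of *Krt5* and 31 bases before that of *Krt23*. ATAAAA was in 20 of 37 keratin promoters, against 17.0% of all 32851 promoters in the table, and TATAAA in 17, against 12.4%. The STAT5 letters were in 4 of the 37 (all promoters 7.02%), the glucocorticoid receptor element in 6 (16.1%), the AP-1 letters in 2 (6.75%) and the SP1 letters in 2 (32.7%). The 2 promoters with the AP-1 letters both belong to *Krt13*. A match is a run of letters and not a shown binding site.

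Groups were compared with their own control by limma, with Benjamini-Hochberg adjustment over all probes, and a gene is called where its brightest probe had an adjusted p under 0.05. In siNEG cells, 21 of 53 keratins were called between +LH and -LH (all genes with a symbol, 40.8%), 8 higher (all genes, 21.3%) and 13 lower (all genes, 19.5%). With siPINC1.0/1.6 against siNEG in -LH cells 7 were called (all genes 5.26%), 3 higher (2.65%) and 4 lower (2.62%), and without any 1 of the 6 -LH arrays 0 or 1 remained past the threshold. In +LH cells 11 were called (6.41%), of which 10 were higher (3.91%) and 1 lower (2.5%). With siPINC 4 were called in +LH cells (1.36%), all higher (1.11%, and 0.243% lower). In LeGO-1.0/1.6 against LeGO-GFP cells 19 were called (45.7%), 5 higher (22.6%) and 14 lower (23.1%). No keratin was called for siPINC in -LH cells, where no gene of the array was called by limma (0.0%), although 13 of 53 keratins and 13.1% of all genes had an unadjusted p under 0.05. None was called in LeGO-DCR against LeGO-GFP cells (all genes 0.0397%, with 0.00496% higher and 0.0347% lower), where no keratin had an unadjusted p under 0.05. The median log2 fold change over the 53 keratins lay between -0.08 and 0.16 in these 7 comparisons and that over all genes between -0.01 and 0.02. *Krt77* accounts for 1 call each in the hormone, the -LH siPINC1.0/1.6 and the LeGO-1.0/1.6 comparisons although it was below background in both groups each time, and it is not described further. The comparisons share control arrays: siNEG +LH serves the hormone comparison and both +LH knockdowns, and LeGO-GFP both overexpressions.

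**Figure D1:**
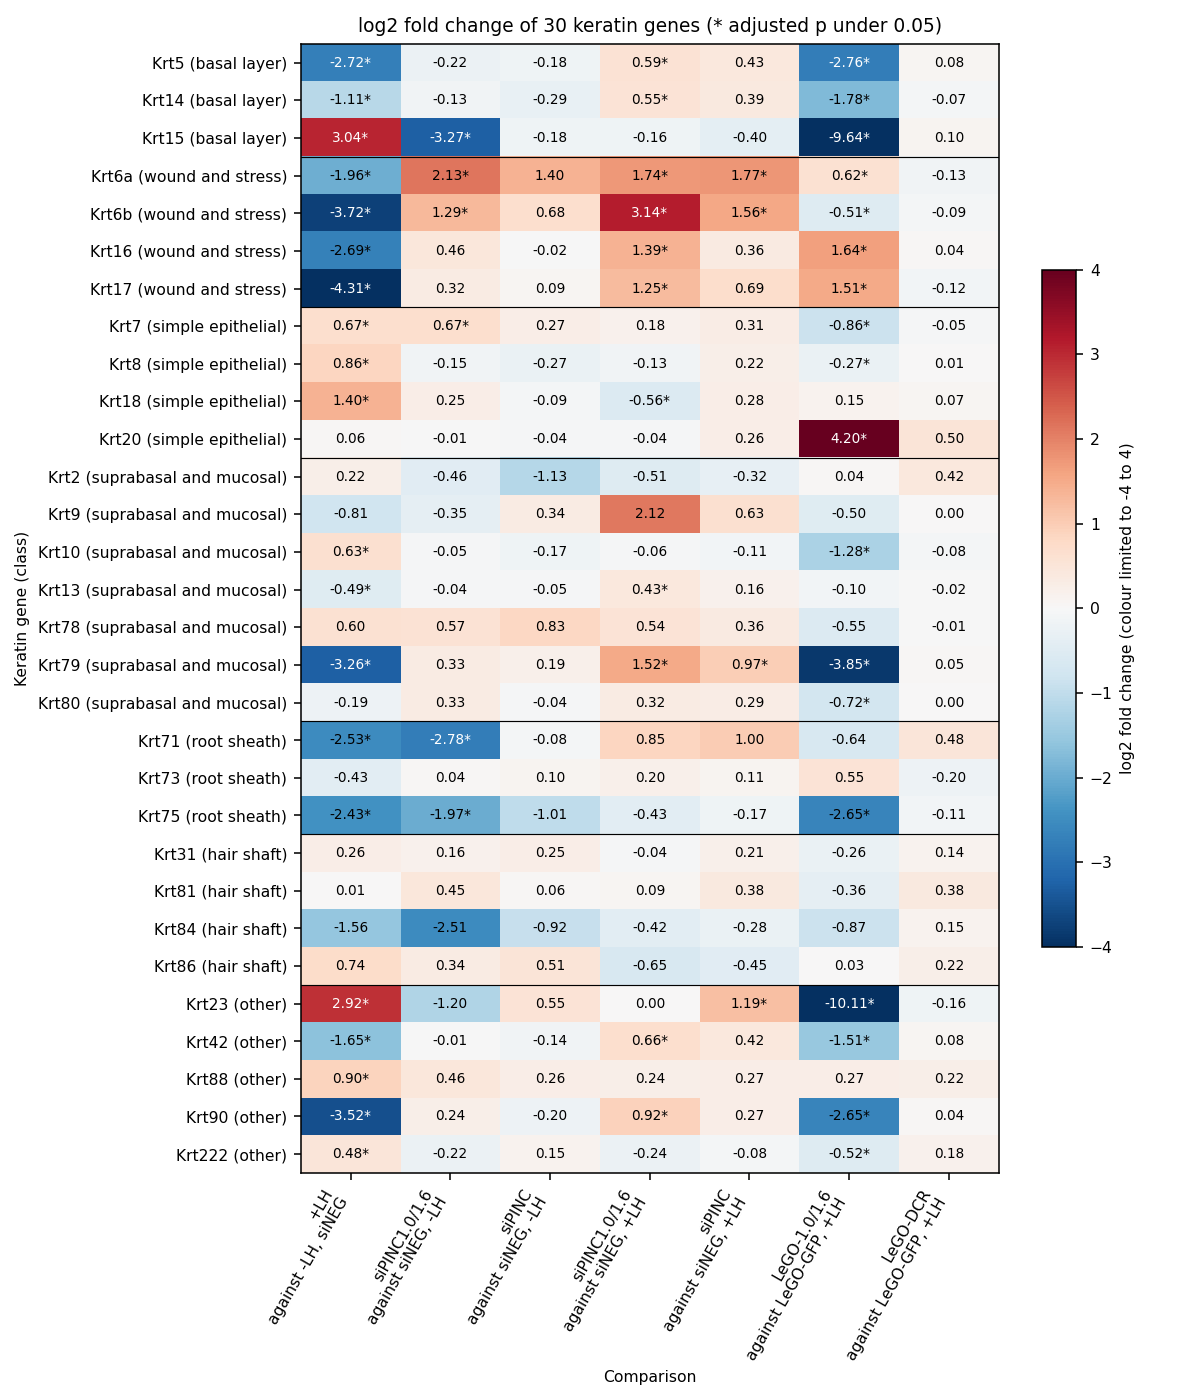
log2 fold change of the 30 keratin genes that exceeded background on all arrays of 1 group or more (rows, by class) in the 7 comparisons with a control group (columns), with an asterisk where the adjusted p was under 0.05. The wound and stress keratins are blue under hormones and red in the siPINC1.0/1.6 columns, *Krt15* and *Krt23* have the deepest blue in the LeGO-1.0/1.6 column, and the LeGO-DCR column holds no asterisk.

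The basal layer keratins did not move as 1 block with hormones. *Krt5* and *Krt14*, the filament partners of basal cells, fell in siNEG cells, while *Krt15*, a type I keratin of basal and progenitor cells, rose. The signals of *Krt5* were 16.51 and 16.54 in siNEG -LH cells and 13.72, 13.81 and 13.88 in siNEG +LH cells, a fall by 2.72 ± 0.071 (SE) on the log2 scale. Those of *Krt14* were 15.98 and 16.02 without and 14.71, 14.84 and 15.13 with hormones, with a log2 fold change of -1.11 ± 0.113. For *Krt15* they were 12.48 and 12.65 without and 15.64, 15.69 and 15.47 with hormones, a rise of 3.04 ± 0.079, or 8.21-fold. For these 3 genes limma's adjusted p was 9.59e-10, 2.27e-05 and 9.89e-10, in a comparison where 40.8% of all genes were called.

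In -LH cells *Krt15* was the only basal layer keratin called with siPINC1.0/1.6, and it was lower. *Krt15* was at 9.28 and 9.32 in siPINC1.0/1.6 cells and at 12.38 and 12.39 in siPINC cells. Its log2 fold change against siNEG was -3.27 ± 0.077 (limma's adjusted p 0.0188), and that against siPINC -3.08 (adjusted p 0.0472), which made it the only keratin called between the siRNA sets in -LH cells (all genes 0.0397%, with 0.00496% higher and 0.0347% lower). With 2 cultures in a group this call did not hold without some of the arrays. Its adjusted p against siNEG was 0.101 without siNEG replicate 2, 0.0896 without siPINC1.0/1.6 replicate 2 and 0.0939 without either siPINC replicate, while the log2 fold change lay between -3.35 and -3.18 over 13 alternatives. The call against siPINC was lost without any 1 of the 6 arrays but siPINC replicate 1. *Krt5* and *Krt14* had log2 fold changes of -0.22 and -0.13 and were not called.

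In +LH cells *Krt5* and *Krt14*, and not *Krt15*, were called with siPINC1.0/1.6. *Krt15* was 15.40, 15.45 and 15.49 on the arrays labelled siPINC1.0/1.6 and 15.28, 15.13 and 15.20 on those labelled siPINC, and was called in neither comparison (log2 fold changes -0.16 and -0.40). *Krt5* was 14.42, 14.29 and 14.46 with siPINC1.0/1.6, above all siNEG +LH values, and rose by 0.59 ± 0.071 (adjusted p 0.00681). The *Krt5* call was lost at its second probe (0.95, limma's adjusted p 0.0623) and by the methods' t-test. *Krt14* was 15.53, 15.42 and 15.36 and rose by 0.55 ± 0.113 (adjusted p 0.0497), a call that was lost in 12 of 16 alternatives. The siPINC1.0/1.6 effect differed between +LH and -LH by 3.11 ± 0.112 for *Krt15* (interaction, adjusted p 1.87e-06) and by 0.80 ± 0.100 for *Krt5* (0.00168).

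All 3 basal layer keratins fell in LeGO-1.0/1.6 cells. Of 8 basal mammary markers, which include *Krt5* and *Krt14*, 5 fell (all genes 23.1%) and 2, *Cnn1* and *Acta2*, rose (22.6%). *Krt5* was 14.47, 14.61 and 14.49 in LeGO-GFP cells and 11.71, 11.73 and 11.85 in LeGO-1.0/1.6 cells, a fall by 2.76 ± 0.077. *Krt14* was 15.33, 15.38 and 15.32 against 13.63, 13.54 and 13.53, a fall by 1.78 ± 0.048. *Krt15* was 14.08, 13.95 and 14.03 in LeGO-GFP cells and 5.52, 3.30 and 4.32 in LeGO-1.0/1.6 cells, where only 2 of 3 arrays were well above background. The log2 fold change was -9.64 ± 0.487, or 798-fold lower. It was -10.21 without LeGO-1.0/1.6 replicate 1, -9.10 without replicate 2 and, at the other end of 16 alternatives, -7.59 with normexp background correction. The adjusted p was 4.24e-07 for *Krt5*, 3.92e-07 for *Krt14* and 5.89e-06 for *Krt15*. In LeGO-DCR cells *Krt15* was 14.02, 14.08 and 14.26, *Krt5* 14.52, 14.58 and 14.73 and *Krt14* 15.28, 15.26 and 15.28. None of these 3 was called against LeGO-GFP, and all 3 were called in LeGO-1.0/1.6 against LeGO-DCR cells.

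**Figure D2:**
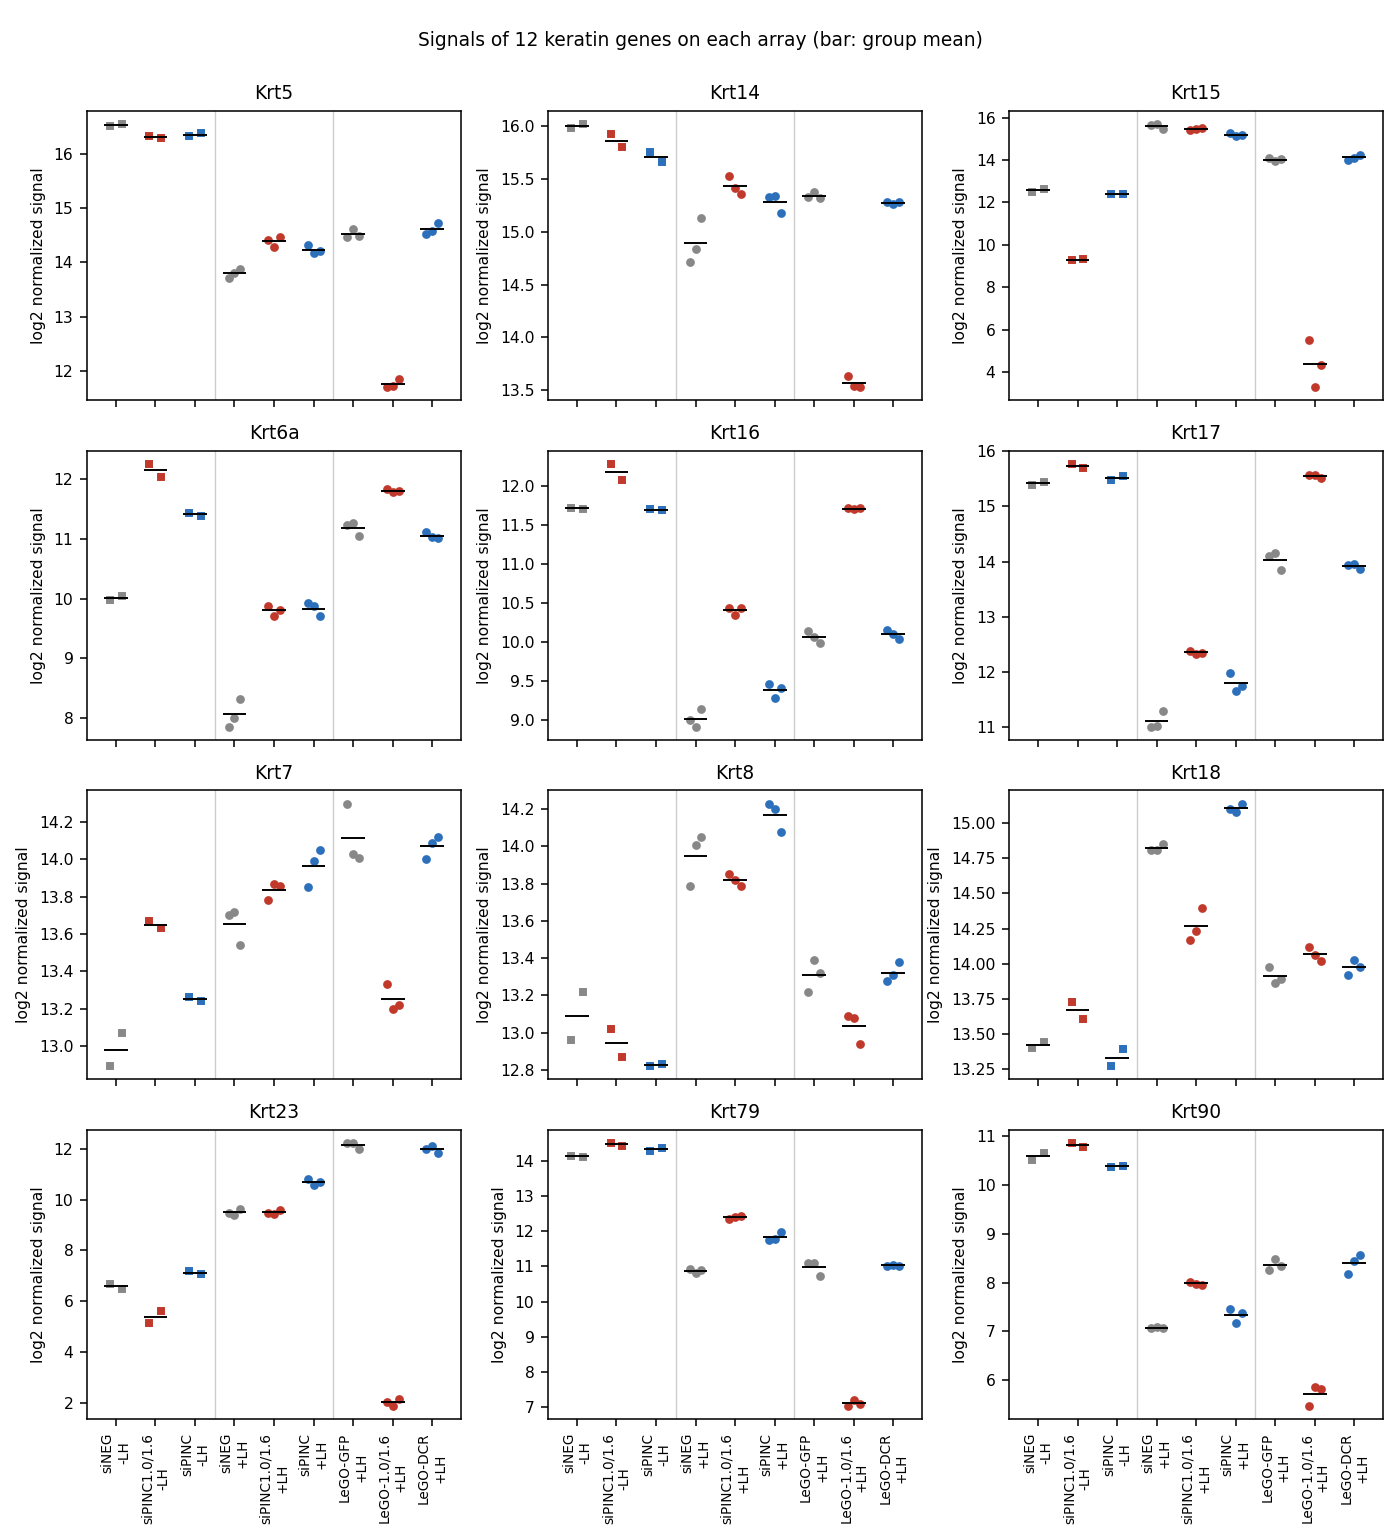
log2 normalized signal of 12 keratin genes (panels) on every array, by group, with a bar at the group mean, squares for -LH and circles for +LH arrays, grey for controls, red for siPINC1.0/1.6 or LeGO-1.0/1.6 and blue for siPINC or LeGO-DCR. In the *Krt15* panel the LeGO-1.0/1.6 arrays lie between 3.30 and 5.52 and those of the other groups at 9.28 or above.

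The wound and stress keratins *Krt6a*, *Krt6b*, *Krt16* and *Krt17*, which form filaments in activated epithelium, fell with hormones as a group of 4 of 4 (all genes 19.5% lower). *Krt17* went from 15.39 and 15.45 in siNEG -LH cells to 11.01, 11.02 and 11.30 in siNEG +LH cells, the largest fall of any keratin in this comparison (4.31 ± 0.107 on the log2 scale, 19.9-fold, adjusted p 8e-10). *Krt6b* went from 12.05 and 12.01 to 8.25, 8.29 and 8.40, a fall by 3.72 ± 0.097. *Krt16* went from 11.72 and 11.70 to 9.01, 8.92 and 9.14 and fell by 2.69 ± 0.086. *Krt6a* went from 9.98 and 10.05 to 7.85, 8.0 and 8.32 and fell by 1.96 ± 0.128. The median change of the class was -3.20 against 0.02 over all genes. Scaling to the 75th percentile in place of quantiles moved the median of all genes in the hormone comparison to 0.111, and relative to it all 21 called keratins kept their direction.

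On the +LH arrays labelled siPINC1.0/1.6 and on those labelled siPINC, *Krt6a* and *Krt6b* were higher than in siNEG cells. *Krt6b* was 11.50, 11.45 and 11.41 on the siPINC1.0/1.6 arrays and 10.06, 9.77 and 9.78 on the siPINC arrays. It rose by 3.14 ± 0.088 with siPINC1.0/1.6 (8.82-fold, adjusted p 0.00015) and by 1.56 ± 0.088 with siPINC (adjusted p 0.0036), and the difference of 1.58 between the siRNA sets was called (adjusted p 0.00546). The dimmer of its 2 probes rose by 2.02 and 1.58, and its difference of 0.43 between the sets was not called (adjusted p 0.102). *Krt6a* was 9.88, 9.71 and 9.81 with siPINC1.0/1.6 and 9.92, 9.87 and 9.70 with siPINC, and rose by 1.74 and 1.77 (SE 0.125). The siRNA sets overlapped for *Krt6a* and were not called against each other.

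*Krt16* and *Krt17* were called with siPINC1.0/1.6, where they rose, and not with siPINC. *Krt16* was 10.44, 10.35 and 10.44 with siPINC1.0/1.6 (a rise of 1.39 ± 0.076, adjusted p 0.000416) and 9.46, 9.29 and 9.41 with siPINC, where it was not called. The difference between the sets, 1.02, was called for *Krt16* (adjusted p 0.00655). *Krt17* was 12.38, 12.33 and 12.35 with siPINC1.0/1.6 (a rise of 1.25 ± 0.109, adjusted p 0.00181) and 11.98, 11.66 and 11.74 with siPINC, with a log2 fold change of 0.69 that missed the threshold. The sets were not called against each other for *Krt17*. Even with siPINC1.0/1.6, the +LH values of *Krt16* and *Krt17* stayed below those of siNEG -LH cells.

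In -LH cells *Krt6a* and *Krt6b* were the largest rises among keratins with siPINC1.0/1.6. *Krt6a* was 12.26 and 12.04 with siPINC1.0/1.6 and 11.44 and 11.39 with siPINC, above both siNEG values. *Krt6b* was 13.44 and 13.21 with siPINC1.0/1.6 and 12.72 and 12.71 with siPINC, also above both siNEG values. With siPINC1.0/1.6 the rises were 2.13 ± 0.097 for *Krt6a* (adjusted p 0.0215) and 1.29 ± 0.096 for *Krt6b* (0.0297). With siPINC the log2 fold changes were 1.40 and 0.68, with adjusted p of 0.139 and 0.216. Both siPINC1.0/1.6 calls were lost whenever any 1 of the 6 arrays was left out. *Krt16* (12.28 and 12.07) and *Krt17* (15.77 and 15.70) had log2 fold changes of 0.46 and 0.32 with siPINC1.0/1.6 and were not called.

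In LeGO-1.0/1.6 cells, *Krt16* and *Krt17* rose while the basal layer partners fell. *Krt16* was 10.14, 10.06 and 9.99 in LeGO-GFP cells and 11.71, 11.70 and 11.71 in LeGO-1.0/1.6 cells, a rise of 1.64 ± 0.057 (3.13-fold, adjusted p 1.06e-06). *Krt17* was 14.10, 14.15 and 13.85 against 15.56, 15.57 and 15.51, a rise of 1.51 ± 0.081 (2.85-fold, 7.86e-06). *Krt6a* was 11.23, 11.27 and 11.05 against 11.84, 11.79 and 11.80, a rise of 0.62 ± 0.068 (0.000302). These 3 genes were higher both with siPINC1.0/1.6 in +LH cells and with *mPINC* overexpression, each against its own control.

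For *Krt6b* the direction in LeGO-1.0/1.6 cells depended on the probe. Its brighter probe gave 11.60, 11.45 and 11.39 in LeGO-GFP and 10.87, 10.97 and 11.07 in LeGO-1.0/1.6 cells, a fall by 0.51 (adjusted p 0.00708). The dimmer probe gave 10.00, 9.83 and 9.62 in LeGO-GFP and 10.35, 10.30 and 10.32 in LeGO-1.0/1.6 cells, a rise of 0.51 (adjusted p 0.00457). The probes also had opposite signs, both called, in LeGO-1.0/1.6 against LeGO-DCR cells (-0.42 and 0.67). In the 4 comparisons of siRNA arrays where *Krt6b* was called against siNEG or against -LH cells, both probes moved the same way. The brighter and the dimmer probe gave -3.72 and -2.46 with hormones, 1.29 and 1.90 with siPINC1.0/1.6 in -LH cells, 3.14 and 2.02 with siPINC1.0/1.6 in +LH cells, and 1.56 and 1.58 with siPINC in +LH cells. *Krt6a* and *Krt6b* have very similar transcripts, and how far a probe of one also reads the other is not known from these data.

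**Figure D3:**
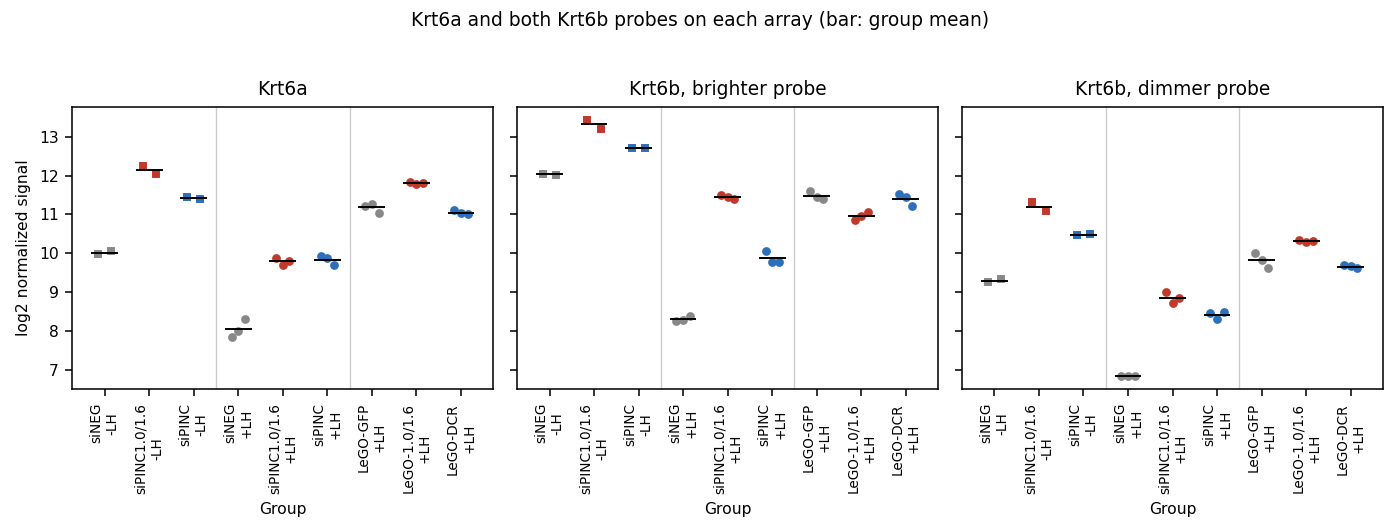
log2 normalized signal of *Krt6a* and of the brighter and the dimmer *Krt6b* probe on every array, by group, with a bar at the group mean, colours by treatment (grey controls, red siPINC1.0/1.6 or LeGO-1.0/1.6, blue siPINC or LeGO-DCR), squares for -LH and circles for +LH. From LeGO-GFP to LeGO-1.0/1.6 cells the brighter *Krt6b* probe goes down by 0.51 while the dimmer one and *Krt6a* go up by 0.51 and 0.62.

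The simple epithelial keratins *Krt7*, *Krt8* and *Krt18*, which line glands and ducts, rose with hormones in siNEG cells. They were 3 of 5 members (all genes 21.3% higher), and none was lower (19.5%). *Krt18* was 13.40 and 13.44 without and 14.81, 14.81 and 14.85 with hormones, a rise of 1.40 ± 0.074 (2.64-fold, adjusted p 1.36e-07). Its partner *Krt8* had group means of 13.09 and 13.95 and rose by 0.86 ± 0.098. *Krt7* was 12.89 and 13.07 without and 13.70, 13.72 and 13.54 with hormones and rose by 0.67 ± 0.082. *Krt19* and *Krt20* stayed below background in both groups.

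*Krt18* was the only keratin called lower with siPINC1.0/1.6 in +LH cells. It was 14.17, 14.23 and 14.40 with siPINC1.0/1.6, below all siNEG values, and 15.10, 15.08 and 15.14 with siPINC, above all siNEG values. The fall was 0.56 ± 0.065 (adjusted p 0.00568), and between the siRNA sets *Krt18* differed by -0.84 (0.00655). Its partner *Krt8* was not called with either siRNA set. In -LH cells *Krt7* was 13.67 and 13.63 with siPINC1.0/1.6 and rose by 0.67 ± 0.081 (adjusted p 0.0456), a call that 10 of 13 alternatives lost.

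In LeGO-1.0/1.6 cells *Krt20*, a keratin of intestinal and urothelial surface cells, was among the 5 rises. It was 2.09, 2.36 and 2.03 in LeGO-GFP cells, where 0 of 3 arrays were well above background, and 6.47 and 6.24 on 2 LeGO-1.0/1.6 arrays, the spot of replicate 1 being left out as an outlier. By the scanner software's processed signals this made it at least 18.3-fold higher (limma's adjusted p 0.000388). The fold is counted against the dimmest signal well above background or the probe's own, whichever was higher. The log2 difference of 4.20 shrank to 1.05 with normexp background correction and to 2.05 in the series matrix values. *Krt7* fell by 0.86 ± 0.091, from 14.30, 14.03 and 14.01 to 13.33, 13.20 and 13.22, and *Krt8* by 0.27 ± 0.067 (group means 13.31 and 13.04). The *Krt8* call was lost in 4 of 16 alternatives, 3 of them with 1 array left out. *Krt18* was not called (0.15).

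*Krt79*, a type II keratin of the hair follicle opening and sebaceous duct, had the direction of *Krt5* in each of the 3 comparisons with a control where *Krt5* was called. It was 14.14 and 14.11 in siNEG -LH cells and 10.91, 10.81 and 10.89 in siNEG +LH cells and fell by 3.26 ± 0.072 (9.56-fold, adjusted p 4.31e-10). In +LH cells it was 12.34, 12.40 and 12.42 with siPINC1.0/1.6 and 11.75, 11.78 and 11.97 with siPINC, above every siNEG value, with rises of 1.52 (adjusted p 0.000298) and 0.97 (0.00665). The sets differed by 0.55 (0.022). In the lentivirus experiment it was 11.09, 11.10 and 10.73 in LeGO-GFP and 7.04, 7.22 and 7.10 in LeGO-1.0/1.6 cells, a fall by 3.85 ± 0.107 (14.4-fold, adjusted p 4.31e-07).

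The other suprabasal and mucosal keratins changed less. *Krt10*, the partner of *Krt1* in differentiating epidermis, rose by 0.63 with hormones (group means 8.82 and 9.46) and fell by 1.28 in LeGO-1.0/1.6 cells (9.06 and 7.78), while *Krt1* itself was below background throughout. The second *Krt10* probe was called in neither. *Krt13*, a mucosal keratin, fell by 0.49 with hormones and rose by 0.43 with siPINC1.0/1.6 in +LH cells (adjusted p 0.0392), a call that 13 of 17 alternatives lost. Its second probe gave 1.09 with hormones (adjusted p 0.0972) and was called lower, by 1.74, in LeGO-1.0/1.6 cells, where the first gave -0.10. *Krt80* fell by 0.72 in LeGO-1.0/1.6 cells (8.19 and 7.48). *Krt2* (group means from 4.67 to 7.14), *Krt9* (3.14 to 5.26) and *Krt78* (3.91 to 5.05) were not called in any of the 7 comparisons.

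Of the root sheath keratins, *Krt71*, *Krt73* and *Krt75* were measured, at low signals. *Krt75*, which marks the companion layer, was 7.40 and 7.43 in siNEG cells without hormones, 5.49 and 5.39 with siPINC1.0/1.6 and 6.51 and 6.29 with siPINC. It fell by 1.97 ± 0.098 with siPINC1.0/1.6 (limma's adjusted p 0.0232) and by 2.43 ± 0.151 with hormones, to 4.84, 5.24 and 4.86. The siPINC1.0/1.6 call was lost in 8 of 13 alternatives. With normexp background correction these log2 differences were -1.18 and -1.31. In LeGO-1.0/1.6 cells 0 of 3 arrays were well above background, and *Krt75* was at least 6.29-fold lower than the 5.46, 5.13 and 4.97 of LeGO-GFP cells (adjusted p 0.000158). This log2 difference of -2.65 was -0.51 with normexp background correction, so that the bound holds for the scanner software's processed signals only.

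*Krt71*, an inner root sheath keratin, was 5.65 and 5.86 in siNEG -LH cells and 3.18 and 2.77 in siPINC1.0/1.6 -LH cells, where no array was well above background. By the scanner software's processed signals it was at least 6.85-fold lower there (limma's adjusted p 0.0287), a call that 9 of 13 alternatives lost. By the same signals it was at least 5.64-fold lower in siNEG +LH cells (1.90, 4.09 and 3.67, adjusted p 0.00445). Without siNEG +LH replicate 1 the log2 difference with hormones was -1.87, and within the slide that holds this array and all -LH arrays it was -3.86. With normexp background correction the log2 differences of *Krt71* were -0.77 with siPINC1.0/1.6 in -LH cells and -0.71 with hormones, and in the series matrix values -1.51, which was not called (adjusted p 0.0514), and -1.35. *Krt73* (group means 6.65 to 8.09) was not called in any comparison, and none of the 14 hair shaft keratins was called against a control group by limma. Those measured were *Krt31* (5.73 to 6.62), *Krt81* (5.77 to 7.02), *Krt84* (2.39 to 4.90) and *Krt86* (5.18 to 5.97). At an unadjusted p under 0.05, among these 4, *Krt84* had log2 differences of -2.51 with siPINC1.0/1.6 in -LH cells (adjusted p 0.0638) and -1.56 with hormones (0.0544), and *Krt86* of 0.74 with hormones and -0.65 with siPINC1.0/1.6 in +LH cells. *Krt82* was called lower in LeGO-1.0/1.6 than in LeGO-DCR cells while below background in both.

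*Krt23*, a type I keratin of glandular and intestinal epithelium, changed most in LeGO-1.0/1.6 cells. It was 12.21, 12.22 and 11.98 in LeGO-GFP and 12.01, 12.10 and 11.82 in LeGO-DCR cells, against 2.04, 1.88 and 2.15 in LeGO-1.0/1.6 cells, where no array was well above background. By the scanner software's processed signals it was at least 1100-fold lower there than in LeGO-GFP cells (limma's adjusted p 3.49e-08). This bound does not hold under other background methods. The measured log2 difference of -10.11 was -6.17 with normexp background correction and -7.84 in the series matrix values, where *Krt15* gave -7.59 and -8.65, so that the order of these 2 genes depended on the processing. With hormones *Krt23* went from 6.68 and 6.49 to 9.46, 9.40 and 9.65 in siNEG cells and rose by 2.92 ± 0.135 (7.56-fold). It was 10.80, 10.58 and 10.71 with siPINC in +LH cells, a further rise of 1.19 ± 0.090 (adjusted p 0.00681), and 9.48, 9.45 and 9.60 with siPINC1.0/1.6, overlapping siNEG. The difference between the siRNA sets was called (adjusted p 0.00655). In -LH cells the values were 5.15 and 5.61 with siPINC1.0/1.6 and 7.18 and 7.08 with siPINC, and neither was called.

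*Krt15* and *Krt23* were the keratins with the largest rises with hormones and with the largest falls in LeGO-1.0/1.6 cells. *Krt42* and *Krt90* had the opposite response to hormones and the same direction in LeGO-1.0/1.6 cells. *Krt90* was 10.52 and 10.66 without and 7.06, 7.08 and 7.07 with hormones and fell by 3.52 ± 0.082. It was 8.02, 7.98 and 7.96 with siPINC1.0/1.6 in +LH cells and rose by 0.92 ± 0.077 (adjusted p 0.00151). It went from 8.26, 8.48 and 8.35 in LeGO-GFP to 5.47, 5.85 and 5.82 in LeGO-1.0/1.6 cells and fell by 2.65 ± 0.141. *Krt42* fell by 1.65 with hormones, from 11.24 and 11.55 to 9.63, 9.67 and 9.92, and was 10.44, 10.38 and 10.40 with siPINC1.0/1.6, a rise of 0.66 (adjusted p 0.0103). In LeGO-1.0/1.6 cells it fell by 1.51, from 10.40, 10.77 and 10.73 to 9.16, 9.08 and 9.12. *Krt88* rose by 0.90 with hormones (group means 4.91 and 5.81), and *Krt222* rose by 0.48 with hormones and fell by 0.52 in LeGO-1.0/1.6 cells. Its second probe, at signals of only 1.86 to 1.97, gave 0.02 and -0.01, and the call with hormones was lost in 14 of 24 alternatives.

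The siPINC1.0/1.6 effect differed between +LH and -LH cells for 13 keratins (all genes 6.12%), *Krt77* included, 12 with a higher effect in +LH (4.1%) and 1, *Krt18*, with a lower one (2.02%). The siPINC effect differed for 4 (0.869%), again with *Krt77*, all higher in +LH (0.675%, and 0.194% lower). That count was 1 without siNEG -LH replicate 2, siNEG +LH replicate 1 or 2, siPINC1.0/1.6 +LH replicate 1 or siPINC +LH replicate 3, and 2 without siPINC1.0/1.6 +LH replicate 2 or siPINC +LH replicate 1. The genes *Krt5*, *Krt6b* and *Krt79* were called for both siRNA sets. At the dimmer *Krt6b* probe neither was called, with a difference of 0.11 ± 0.138 for siPINC1.0/1.6 (adjusted p 0.846) and 0.40 for siPINC (0.444). For *Krt15*, *Krt75*, *Krt71* and *Krt23* the difference came with a negative siPINC1.0/1.6 effect in -LH cells, and for *Krt6b*, *Krt16*, *Krt17*, *Krt79* and *Krt90* with a larger rise in +LH cells. Both siRNA effects use the same siNEG arrays within each hormone state. The siRNA sets themselves differed for 6 keratins in +LH cells (1.79%), with *Krt6b*, *Krt16*, *Krt79* and *Krt90* higher (0.943%) and *Krt18* and *Krt23* lower (0.849%) under siPINC1.0/1.6.

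**Figure D4:**
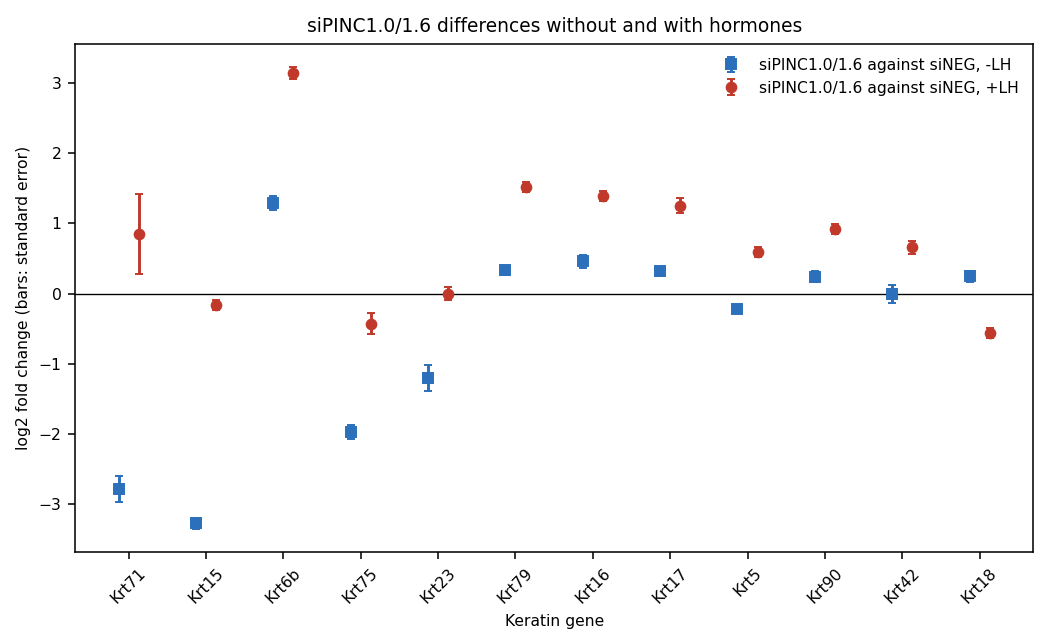
log2 fold change of siPINC1.0/1.6 against siNEG in -LH (blue squares) and +LH (red circles) cells, with bars for the standard error, for the 12 keratins whose effects differed between both states and that were well above background somewhere. *Krt15* goes from -3.27 without to -0.16 with hormones and *Krt6b*, at its brighter probe, from 1.29 to 3.14 (1.90 to 2.02 at the dimmer one, not called), while *Krt18* goes from 0.25 to -0.56.

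Slides were set apart in a further comparison of counts. Without siNEG +LH replicate 1, so that only arrays of 1 slide entered, siPINC1.0/1.6 in +LH cells gave 9 called keratins, all among the 11, and siPINC the same 4. Without LeGO-GFP replicate 1, LeGO-1.0/1.6 gave 21, among them the same 19. Within the slide that holds the -LH arrays, all 21 keratins called between +LH and -LH had the same sign, with 1 siNEG +LH array. These arrays also entered the main comparison, so the shared sign is not a separate test. Leaving out LeGO-1.0/1.6 replicate 1, the array with the most probes above background, gave 21 called keratins. With LeGO-DCR in place of LeGO-GFP as the reference, 20 keratins were called in LeGO-1.0/1.6 cells (all genes 45.4%), 5 higher (23.0%) and 15 lower (22.5%).

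Genes that anchor or neighbour keratin filaments are given beside them. For all the lists that follow, the share of all genes called was 21.3% higher and 19.5% lower with hormones, and for LeGO-1.0/1.6 it was 22.6% higher and 23.1% lower. Of 20 desmosome and plakin genes, whose proteins tie keratin filaments to cell junctions, 7 rose and 4 fell with hormones, led by *Perp* (2.18) and *Ppl*, periplakin (2.03). In LeGO-1.0/1.6 cells 1 rose and 9 fell, led by *Ppl* (-2.22) and *Eppk1*, epiplakin (-1.65). Of 5 hemidesmosome genes, which hold basal cells to the basement membrane, 4 fell in LeGO-1.0/1.6 cells, led by the integrin *Itgb4* (-0.91) and *Col17a1* (-0.87), and *Dst* rose. With siPINC1.0/1.6 in -LH cells *Itga6* (-0.67) and *Col17a1* (-0.59) fell (all genes 2.62% lower). With siPINC1.0/1.6 in +LH cells *Col17a1* rose by 0.33 (all genes 3.91% higher) and *Dst* fell by 0.48 (2.5% lower).

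Of 11 other intermediate filament genes 5 fell with hormones, led by *Nes*, nestin (-1.88), and *Lmnb1*, lamin B1 (-1.36). *Vim*, vimentin of mesenchymal and cultured cells, fell by 0.87 with hormones and rose by 0.48 with siPINC1.0/1.6 and by 0.45 with siPINC in +LH cells. In LeGO-1.0/1.6 cells 4 rose, led by *Prph* (2.99) and *Bfsp1* (1.47). Of 12 transcription factors with known keratin targets, 4 rose and 6 fell with hormones, led by *Tfap2a* (0.83) and *Gata3* (0.59) and by *Grhl3* (-1.61) and *Cebpb* (-1.23). In LeGO-1.0/1.6 cells 3 of the 12 rose, *Grhl3*, *Cebpb* and *Klf4*, and 6 fell, led by *Tfap2c*, *Cebpa* and *Grhl2*. *Grhl3* and *Klf4*, factors of epidermal differentiation, rose with siPINC1.0/1.6 in -LH cells (1.14 and 0.51) and in +LH cells (0.70 and 0.35). In LeGO-1.0/1.6 cells their rises were 1.70 and 0.42. *Tfap2c* fell in the same 3 comparisons, by 1.14, 0.24 and 2.08. *Cebpa* fell in -LH siPINC1.0/1.6 (-1.18) and in LeGO-1.0/1.6 cells (-1.28). The median change of these 12 genes was -0.47 with hormones and -0.48 in LeGO-1.0/1.6 cells, against 0.02 and -0.01 over all genes.

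Marks of other cell types also moved in these comparisons. The log2 of the summed signal of 6 fibroblast markers, 4 or 5 of them well above background on every array of these groups, was 9.51 to 9.58 in siNEG -LH, 11.94 to 12.13 in siNEG +LH, 13.21 to 13.55 in LeGO-GFP and 9.58 to 9.79 in LeGO-1.0/1.6 cells, with *Dcn* higher by 6.98 with hormones and lower by 4.62 in LeGO-1.0/1.6 cells. With hormones 4 of the 6 rose and 2 fell, the collagens *Col1a1* (-2.94) and *Col1a2* (-1.86). Of the 6, 4 were called in LeGO-1.0/1.6 cells, where 3 fell and 1, *Pdgfra*, rose (0.96). The log2 sum of 3 adipocyte markers was 9.63 to 9.72 in LeGO-GFP and 13.25 to 13.41 in LeGO-1.0/1.6 cells, with *Fabp4* higher by 3.66, while *Adipoq* stayed below background in both groups. For the 8 measured of 10 squamous markers it was 10.67 to 10.71 in siNEG -LH, 10.42 to 10.62 in siNEG +LH, 10.80 to 10.84 in LeGO-GFP and 9.78 to 10.01 in LeGO-1.0/1.6 cells, with *Krt1* below background throughout. Of these, 3 rose in LeGO-1.0/1.6 cells, *Sprr1b* (3.44), *Lor* (1.07) and *Ivl*, which was not well above background in LeGO-GFP cells, and 3 fell, *Tgm1* (-2.71), *Sprr1a* (-1.99) and *Krt10* (-1.28). With hormones 1 rose and 2 fell. The log2 sum of 6 epithelial markers was 15.37 to 15.40 in LeGO-GFP and 15.33 to 15.36 in LeGO-1.0/1.6 cells. Of these 6, 4 fell in LeGO-1.0/1.6 cells, led by *Epcam* and *Cldn7*, and 1, *Esrp1*, rose. Of 8 luminal markers, 3 fell in LeGO-1.0/1.6 cells, *Elf5*, *Prlr* and *Krt8*, and 1, *Esr1*, rose. With hormones 4 luminal markers rose, led by *Elf5* and by the keratins *Krt18* and *Krt8* already described, and 0 fell. Of 8 basal mammary markers, 4 fell with hormones, led by *Krt5* and *Oxtr*, and 1, *Acta2*, rose. Of the immune markers *Ptprc* and of the endothelial markers *Cdh5* and *Tek* were not well above background in siNEG cells. In all, 2 of 3 measured immune and 2 of 4 endothelial markers were well above background on every siNEG -LH array, and 1 and 2 on every siNEG +LH array. Their part in the keratin differences was not tested. Of 8 milk genes 3 rose with hormones, led by *Csn2* (8.97), and 5 fell in LeGO-1.0/1.6 cells, led by *Ltf* (-4.31) and *Csn2* (-4.25).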

How the data were processed

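RNA of 24 HC11 cultures was measured on Agilent 8x60K mouse arrays. The authors deposited intensity values per spot from Feature Extraction 11.0.1.1 (background-corrected processed signal, median signals, and outlier, saturation and detection marks), not normalized between arrays, and a series matrix of quantile-normalized log2 values, which ranks spots as the median signal minus local background does (Spearman correlation 1). Here the log2 processed signals of 59305 non-control spots were quantile normalized, outlier spots (146 to 644 per array) left out and spots averaged into 55681 probes, of which 26582 had a symbol through their RefSeq accession. Dim probes were kept. Of a gene's probes the one with the highest mean stands for it. 3 separate fits served the knockdown and overexpression comparisons (-LH, +LH and lentivirus arrays) and 1 fit of 15 siRNA arrays the hormone comparison and the interactions, with the lmFit, contrasts.fit and eBayes steps of limma 3.58.1 (R 4.3.3), with Benjamini-Hochberg adjustment over all probes and a threshold of 0.05. Where 0 arrays of a group exceeded background at a probe, the fold is a lower bound against, per array, the higher of its own signal and the lowest signal well above background (log2 1.88 to 2.35). This bound holds for the processed signals only, and normexp and the series matrix gave smaller differences. The fits were tested on simulated data. Python 3.11.15 with pandas 2.3.3 and matplotlib 3.10.9 made summaries and figures.

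The members, gene lists and tests were chosen with earlier results of these data known. Keratins named are those well above background on every array of a group or called in a comparison. Values per array are given for keratins called in at least 3 of 7 comparisons with a control, or among the 2 largest rises or falls of 1. Alternatives were 75th percentile normalization, normexp on median signals with an offset of 50, dim probes left out, the series matrix, the methods' t-test, a slide term over all arrays, a replicate block, each array left out, arrays of 1 slide, and each gene's other probe. The methods call the replicates biological duplicates and triplicates. They also state that transduced cells were expanded and frozen in aliquots, so the arrays of a LeGO group may come from 1 transduction. The spread within a LeGO group then does not measure variation between transductions. Detection rests on spot intensity, so signals near background are compressed or stretched by the background method. Array design and annotation refer to mm9, and promoter coordinates come from a RefSeq table of GRCm38.p6.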

Additional observations from a re-analysis of the deposited data

Results flagged for a closer look

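A closer look is given to keratins for which the effect of a knockdown differed between +LH and -LH cells by the interaction test of limma over the 15 siRNA arrays. *Krt77*, below background in every group, is left out. For siPINC1.0/1.6, the difference of *Krt15* was 3.11 ± 0.112 (SE, adjusted p 1.87e-06), from -3.27 in -LH to -0.16 in +LH cells. That of *Krt71* was 3.63 ± 0.764 (0.0298), from -2.78 to 0.85, at signals near background. *Krt75* differed by 1.55 ± 0.214 (0.00304), from -1.97 to -0.43, and *Krt23* by 1.21 ± 0.190 (0.00639), from -1.20 to 0.00.

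In the wound and stress class the siPINC1.0/1.6 effect was larger in +LH cells by 1.85 ± 0.138 for *Krt6b* (0.000119; 1.29 and 3.14), 0.93 ± 0.122 for *Krt16* (0.00227; 0.46 and 1.39) and 0.93 ± 0.151 for *Krt17* (0.00763; 0.32 and 1.25). The *Krt6b* difference was not seen at the dimmer of its 2 probes, which gave 0.11 ± 0.138 (adjusted p 0.846; 1.90 and 2.02). *Krt79* differed by 1.19 ± 0.102 (0.00023; 0.33 and 1.52), *Krt5* by 0.80 ± 0.100 (0.00168; -0.22 and 0.59) and *Krt90* by 0.68 ± 0.116 (0.00969; 0.24 and 0.92). *Krt42* differed by 0.67 ± 0.155 (0.0459; -0.01 and 0.66). *Krt18* went the other way, by -0.81 ± 0.104 (0.00207; 0.25 and -0.56).

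For siPINC, the difference was 0.88 ± 0.138 for *Krt6b* (0.0299; 0.68 in -LH and 1.56 in +LH cells), 0.78 ± 0.102 for *Krt79* (0.016; 0.19 and 0.97) and 0.61 ± 0.100 for *Krt5* (0.0348; -0.18 and 0.43). The dimmer *Krt6b* probe gave 0.40 ± 0.138 (adjusted p 0.444; 1.18 and 1.58). The -LH arrays all lay on 1 slide and 8 of the 9 +LH siRNA arrays on another, so slide and hormone state cannot be told apart in these differences beyond siNEG +LH replicate 1.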

How the results depend on the processing

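Counts of called keratins for LeGO-1.0/1.6 (19 against LeGO-GFP, 20 against LeGO-DCR), hormones (21), siPINC1.0/1.6 interaction (13) and LeGO-DCR (0) stayed within 1.5 times under every alternative. Without 1 array they were 18 to 21, 18 to 21, 20 to 23, 11 to 16 and 0. For siPINC1.0/1.6 in -LH cells (7) the count was 11 with normexp, with dim probes left out and when all arrays were fitted together with slide as a term, 4 in the series matrix, 0 with a replicate block and by the methods' t-test after adjustment, and 0 to 1 without 1 array. For siPINC in -LH cells (0) it was 3 with normexp, 4 with the slide term and 0 without 1 array. For siPINC1.0/1.6 in +LH cells (11) it was 6 by the t-test, 8 with the block and 9 to 12 without 1 array. For siPINC in +LH cells (4) it was 9 without dim probes, 8 with the slide term, 0 with the block and by the t-test, and 4 without 1 array. The siPINC interaction (4) gave 0 with the 75th percentile, in the series matrix and with the block, and 1 to 5 without 1 array. Between the siRNA sets in -LH cells (1) the count was 0 with the 75th percentile, in the series matrix, with the block and by the t-test, 8 with normexp, 6 without dim probes, 11 with the slide term and 0 to 1 without 1 array. In +LH cells (6) it was 0 with the block and by the t-test, and 4 to 6 without 1 array. The cause was not tested.

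Of 1129 recomputed values of 62 named gene results, 997 kept direction and call, 130 lost the call and 2 reversed. The reversals were *Krt6b* in LeGO-1.0/1.6 cells (0.51 at the dimmer probe) and *Krt13* with hormones (1.09 at its second probe, at low signals). Same-numbered replicates deviated together with correlations of -0.458 to 0.247, so that the numbers were not taken to pair samples and the replicate block removes degrees of freedom without a known pairing. Where an array left out leaves 1 in a group, that one is assumed to vary like the other groups. Signals near background limit the size of the changes of *Krt15*, *Krt20*, *Krt23*, *Krt71* and *Krt75*.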
